A study of Mus musculus with 4 samples.

Results

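The genes described here are 41 mouse genes that copy DNA in S phase, drive the G1 to S transition or carry out mitosis. They were taken by symbol from a fixed list, and their tag counts were summed by Ensembl gene identifier. They make up 41 of the 26252 features (Ensembl genes, or UniGene clusters where no gene was given) in the deposited tag table. Of these features, 13718 had enough counts to be tested, and all 41 genes were among them. By phase, 18 genes belong to S phase, 7 to G1 and G1/S and 16 to mitosis. The samples were whole forelimbs and whole hindlimbs of CD1 embryos at E14.5, with 2 biological replicates of each limb type and no treatment or genetic change named. Nothing in the labels says how many embryos made up a sample, or whether limbs with the same replicate number came from the same embryos. RNA was read by DGE-SAGE, in which the enzyme NlaIII cuts cDNA at CATG and the 17 bases beside the cut near the poly(A) end are counted as a tag. A tag count is therefore a count of transcript ends and is not scaled by transcript length.

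A dividing cell commits to a new cycle in G1, when D-type cyclins with Cdk4 and then E-type cyclins with Cdk2 free the E2F transcription factors. E2F factors switch on the genes for origin licensing, the replication fork and nucleotide synthesis, so these transcripts tend to rise together at the entry into S phase. A later wave of genes, driven by the MuvB complex with B-Myb and FoxM1, supplies the cyclins, kinases and checkpoint proteins of G2 and mitosis. In the limb at this stage, mesenchyme, perichondrium and the flat cells of the growing cartilage divide, while differentiating muscle fibres have left the cycle.

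The most abundant tag of each gene that differed between limb types is printed first, because the differences below are set beside the bases of the tags. Each position holds CATG and the 17 bases after it, 21 bases in all, on GRCm38 with the annotation GENCODE M21. The tags are written 5′ to 3′ in lower case, and capitals mark G and C.
Cdc20, higher in hindlimb, chr4:118433486-118433506, minus strand, coding sequence: GCCaaGGtGGCtGaGCt
Tk1, higher in hindlimb, chr11:117816481-117816501, minus strand, coding sequence: GaGtGCttCCGaGaaGC
Plk1, higher in hindlimb, chr7:122169744-122169764, plus strand, 3′ UTR: tCtGGGtGtGGGtttaC
Mcm5, higher in hindlimb, chr8:75127531-75127551, plus strand, 3′ UTR: CCttCtCaaCaaGatGa
Ccne2, higher in forelimb, chr4:11204249-11204269, plus strand, 3′ UTR: aaCCttGtCtCtCtttG
Cdk1, higher in forelimb, chr10:69338333-69338353, minus strand, 3′ UTR: taaatattattCCatat
Pcna, higher in forelimb, chr2:132249378-132249398, minus strand, 3′ UTR: aatGtttCtGCtttaCa
Cdt1, higher in forelimb, chr8:122573063-122573083, plus strand, 3′ UTR: tGaCtGCtaGttttGGC
Ccne1, higher in forelimb, chr7:38098031-38098051, minus strand, 3′ UTR: aaCtCttattttGtaaG
Rrm2, higher in forelimb, chr12:24713969-24713989, plus strand, 3′ UTR: aaCtGaCataaCCCtGa
Mcm6, higher in forelimb, chr1:128331597-128331617, minus strand, 3′ UTR: aaaataaaaCaaCttGt
In the 4 tags from genes higher in hindlimb, 11, 10, 9 and 7 of the 17 bases were G or C, in the order printed. In the 7 tags from genes higher in forelimb the numbers were 7, 2, 5, 8, 4, 7 and 3.

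Library totals ran from 1829647 tags in forelimb replicate 2 to 5325279 in hindlimb replicate 1, and 81.3% to 85.2% of these counts carried a gene or cluster. The libraries differed in base composition. G and C made up 40.8% and 40.3% of the tag bases in forelimb replicates 1 and 2, and 46.4% and 50.7% in hindlimb replicates 1 and 2. Pearson's r of log2 CPM across tested genes, which are not independent replicates, was 0.927 for the forelimb pair, 0.928 for the hindlimb pair and 0.777 to 0.888 between limb types. Limb identity genes followed the labels. Pitx1, which specifies hindlimb, had 3.31 and 1.24 CPM in the forelimb libraries and 253 and 303 CPM in the hindlimb libraries, and Tbx5, the forelimb T-box gene, had 18.3 and 14.8 against 0.889 and 1.51 CPM. CPM here are tag counts scaled to the library sizes after TMM. The 41 genes had 222 to 6695 counts each over the 4 libraries, and the lowest count in a library was 15.

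Of the 41 genes, 4 were higher in hindlimb and 7 were higher in forelimb, while 30 missed the threshold (edgeR quasi-likelihood, Benjamini-Hochberg adjusted p under 0.05 over all tested genes). Higher in hindlimb were Cdc20, Tk1, Plk1 and Mcm5. Higher in forelimb were Ccne2, Cdk1, Pcna, Cdt1, Ccne1, Rrm2 and Mcm6. The 11 genes are 26.8% of the set, where the whole table gave 16.7%. Hindlimb calls took 9.76% of the set against 9.58% of all tested genes, and forelimb calls 17.1% against 7.08%. The median log2 fold change, hindlimb over forelimb, was -0.11 for the 41 genes and -0.03 for all tested genes, and its SD over genes was 0.86 and 1.16. In 28 of the 41 genes (68.3%) the libraries of one limb type did not overlap those of the other, 15 higher in hindlimb and 13 higher in forelimb. For all tested genes that share was 62.8%. In whole limbs, fewer dividing cells and less RNA per dividing cell cannot be told apart.

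**Figure D1:**
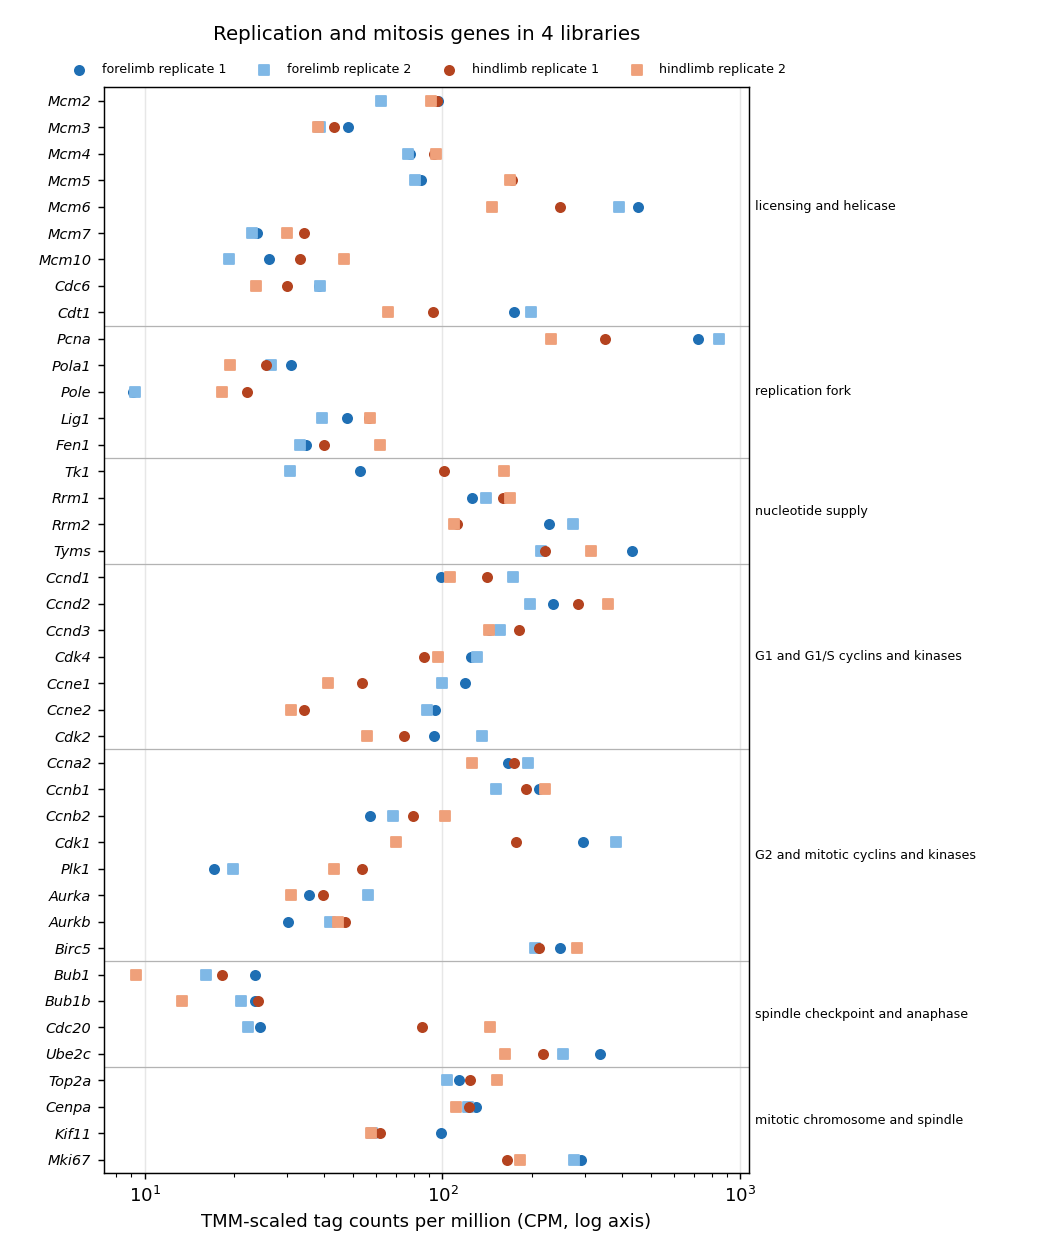
TMM-scaled CPM (log axis) of the 41 genes in the 4 libraries, 1 point per library, grouped by role. Cdc20, Tk1, Plk1 and Mcm5 have both hindlimb points to the right of both forelimb points, and the 7 genes higher in forelimb have both to the left.

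The same fit was run with a tag-sequence offset, in which the bases of each tag set its expected level in each library. The offset was learned only from differences between tags of the same gene. With it, edgeR called none of the 41 genes, and the smallest adjusted p was 0.286. In the whole table it called 30 genes, or 0.219%. The unadjusted edgeR p was under 0.05 for 5 of the 41 genes with the offset and for 14 without it. Over all 13718 tested features, the numbers were 1440 with the offset and 4449 without it. The SD of the 41 log2 fold changes fell from 0.86 to 0.36, and over all tested features it fell from 1.16 to 0.74. Of the 41 genes, 34 lay within 0.5 of 0, compared with 20 before, and no such share was taken over all features. Of the 11 genes called without the offset, 8 kept their sign, and Mcm5, Mcm6 and Plk1 turned. Among the genes not called, Aurka, Ccna2, Ccnd3, Lig1, Mcm3, Mcm4, Mki67, Tyms and Ube2c also changed sign. The offset ended every one of the 11 calls, so its value is given below beside each called gene, and the plot of limb differences shows it for all 41.

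**Figure D2:**
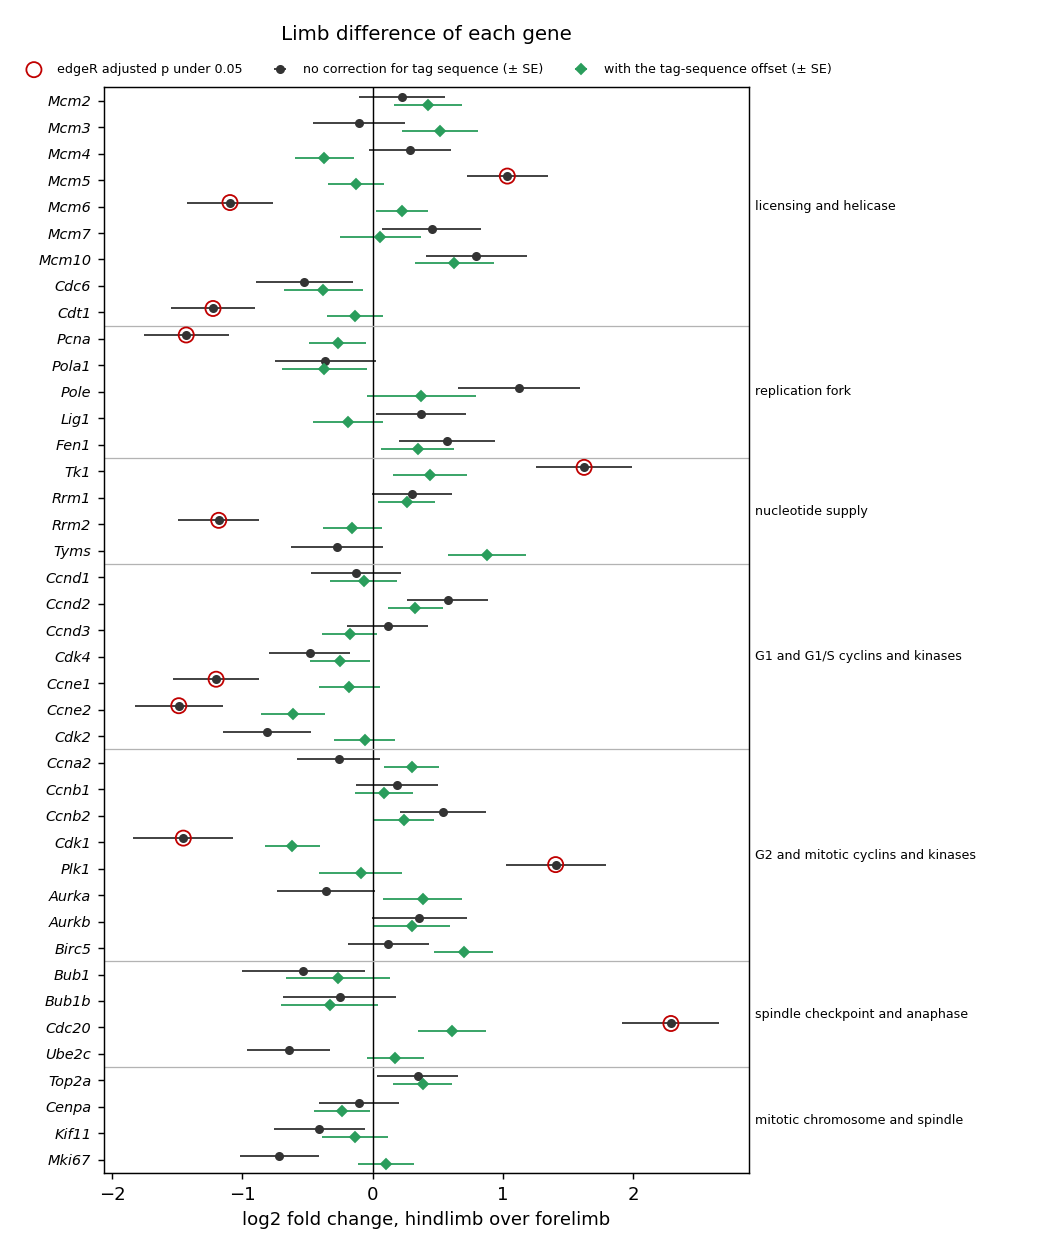
Log2 fold change, hindlimb over forelimb, with its standard error for each of the 41 genes, without (circles) and with (diamonds) the tag-sequence offset. Red rings mark the 11 genes past the test, and the diamonds run from -0.62 for Cdk1 to 0.88 for Tyms with none past it.

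Among the 9 licensing and helicase genes, Mcm5 was higher in hindlimb, Mcm6 and Cdt1 were higher in forelimb, while the other 6 missed the threshold. Mcm5 and Mcm6 both encode subunits of the MCM2 to MCM7 ring, the helicase that unwinds DNA at the fork. Mcm5 (chromosome 8, 75109569 to 75128439, plus strand) had 84.6 and 80.9 CPM in forelimb replicates 1 and 2 and 171 and 168 CPM in hindlimb replicates 1 and 2. Its libraries separated by limb type with little spread within one, and the difference of 1.03 ± 0.31 passed (SE, edgeR adjusted p = 0.0314). Mcm6 (chromosome 1, 128331590 to 128359664, minus strand) had 453 and 391 CPM in forelimb and 248 and 147 CPM in hindlimb. It went the other way, at -1.10 ± 0.33 (SE, edgeR adjusted p = 0.0317). With the offset, the pair stood at -0.13 ± 0.22 for Mcm5 and 0.23 ± 0.20 for Mcm6, both with the sign turned.

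The other 4 subunits of the ring did not pass, so 1 subunit was higher in each limb type. Mcm2, whose most abundant tag held 73.1% of its counts, had 96.8 and 62.4 CPM in forelimb and 95.6 and 91.8 CPM in hindlimb. The limb types overlapped, with a log2 fold change of 0.22 ± 0.33 (SE, edgeR adjusted p = 0.686). Mcm4 had 77.7 and 76.6 CPM in forelimb and 93.6 and 95 CPM in hindlimb. Its libraries did not overlap, but the difference of 0.29 ± 0.32 did not pass (SE, edgeR adjusted p = 0.567). Mcm3 stood at -0.10 ± 0.36 and Mcm7 at 0.45 ± 0.38 (SE). Summed over the 6 subunits, the level was 784 and 673 CPM in forelimb and 686 and 570 CPM in hindlimb, and the limb types overlapped. With the offset the sums were 665 and 652 CPM in forelimb and 744 and 693 CPM in hindlimb, without overlap.

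Cdt1, which with Cdc6 loads the MCM ring onto origins (chromosome 8, 122568015 to 122573554, plus strand), had 173 and 199 CPM in forelimb and 93.2 and 65.5 CPM in hindlimb. Both hindlimb libraries lay below both forelimb libraries, and the difference was -1.23 ± 0.32 on the log2 scale (SE, edgeR adjusted p = 0.0164). With the offset it was -0.13 ± 0.22. Its partner Cdc6 did not pass at -0.52 ± 0.37, nor did Mcm10, which joins the helicase when origins fire, at 0.80 ± 0.39 (SE).

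Of the 5 replication fork genes, Pcna was higher in forelimb and 4 did not pass. Pcna, the sliding clamp that holds polymerases on DNA (chromosome 2, 132249162 to 132253314, minus strand), had 719 and 851 CPM in forelimb and 350 and 231 CPM in hindlimb. The lower forelimb library was above the higher hindlimb library, and the difference was -1.43 ± 0.33 (SE, edgeR adjusted p = 0.00749). With the offset it was -0.27 ± 0.22. Tags that also match the pseudogene Pcna-ps2 held 34.1% of its counts, and tags of 1 gene alone gave -1.54. When only the tag beside the last NlaIII site of a transcript was used, Pcna stood at -0.29 and was not called. That tag held 116 of the 6695 counts of Pcna and also matches Pcna-ps2.

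Lig1, which seals Okazaki fragments, had 47.9 and 39.5 CPM in forelimb and 56.7 and 57.2 CPM in hindlimb, a difference of 0.37 ± 0.34 (SE, edgeR adjusted p = 0.489). Fen1, the nuclease that trims those fragments, had 34.9 and 33.4 CPM in forelimb and 40.0 and 61.5 CPM in hindlimb. It stood at 0.57 ± 0.37 (SE, edgeR adjusted p = 0.303), with no overlap between limb types. The catalytic subunits of the replicative polymerases were at 1.12 ± 0.47 for Pole and -0.36 ± 0.39 for Pola1 (SE). Pole was among the least counted genes of the set, with 36 and 15 counts in forelimb and 99 and 72 in hindlimb.

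Of the 4 nucleotide supply genes, Tk1 was higher in hindlimb, Rrm2 was higher in forelimb, and Tyms and Rrm1 did not pass. Tk1, the thymidine kinase of the salvage pathway (chromosome 11, 117815526 to 117826092, minus strand), had 52.7 and 30.9 CPM in forelimb and 101 and 161 CPM in hindlimb. Hindlimb exceeded forelimb by 1.62 ± 0.37 (SE, edgeR adjusted p = 0.00718), and by 0.44 ± 0.28 with the offset. Its most abundant tag held 65.2% of the counts and also matches the pseudogene Gm6091. Assigning tags by GENCODE M21 keeps only tags that match 1 gene, so it leaves this tag out. It also adds 167 counts of Tk1 tags that carry no Ensembl gene in the deposited table. That assignment gave 0.83, and Tk1 was then not called. With the authors' assigned tags that match 1 gene alone, Tk1 kept its call.

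Rrm2, the small subunit of ribonucleotide reductase (chromosome 12, 24708241 to 24714146, plus strand), had 228 and 275 CPM in forelimb and 112 and 109 CPM in hindlimb. Its difference of -1.18 ± 0.31 passed (SE, edgeR adjusted p = 0.016), and with the offset it was -0.15 ± 0.22. Rrm1, the large subunit of the same enzyme, had 126 and 140 CPM in forelimb and 160 and 168 CPM in hindlimb. The large subunit did not pass at 0.30 ± 0.31 (SE, edgeR adjusted p = 0.531). Tyms, thymidylate synthase, had 434 and 214 CPM in forelimb and 221 and 316 CPM in hindlimb. Replicates differed more than limb types did, and the log2 fold change of -0.28 ± 0.35 did not pass (SE, edgeR adjusted p = 0.637). Tyms rests on tags shared with the pseudogene Tyms-ps for nearly all of its counts (96.7%), and it turned to 0.88 ± 0.30 with the offset.

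Of the 7 G1 and G1/S genes, both E-type cyclins were higher in forelimb, and 5 genes missed the threshold. Ccne1 (chromosome 7, 38097984 to 38107534, minus strand) had 119 and 99.5 CPM in forelimb and 53.8 and 41.3 CPM in hindlimb. Ccne2 (chromosome 4, 11191351 to 11204779, plus strand) had 94.2 and 89.0 CPM in forelimb and 34.2 and 31.0 CPM in hindlimb. In both cyclins the limb types were apart by more than the spread of the replicates. The log2 fold changes were -1.20 ± 0.33 for Ccne1 (SE, edgeR adjusted p = 0.0202) and -1.49 ± 0.34 for Ccne2 (SE, edgeR adjusted p = 0.00728). With the offset they were -0.18 ± 0.23 and -0.61 ± 0.25. Cdk2, the kinase they activate, had an unadjusted p under 0.05 and did not pass after adjustment, at -0.81 ± 0.34 (SE, edgeR adjusted p = 0.102).

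None of the D-type cyclins, which couple growth signals to the cycle, passed. Ccnd2 had 235 and 197 CPM in forelimb and 285 and 360 CPM in hindlimb, and stood at 0.58 ± 0.31 (SE, edgeR adjusted p = 0.209). Ccnd3 had 143 and 156 CPM in forelimb and 181 and 143 CPM in hindlimb, and stood at 0.11 ± 0.31 (SE, edgeR adjusted p = 0.832). Ccnd1 stood at -0.13 ± 0.34 and their kinase Cdk4 at -0.48 ± 0.31 (SE). The value of Ccnd2 leaves out most counts of tags that match it, because its most counted tag carries no Ensembl gene in the deposited table. Of the counts that were assigned to Ccnd2, 69.1% lay on tags that match no GENCODE M21 transcript. With tags assigned by GENCODE M21, Ccnd2 stood at -0.18.

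Of the 8 G2 and mitotic cyclins and kinases, Cdk1 was higher in forelimb, Plk1 was higher in hindlimb and 6 did not pass. Cdk1, the kinase that drives entry into mitosis (chromosome 10, 69335146 to 69352938, minus strand), had 296 and 381 CPM in forelimb and 177 and 69.8 CPM in hindlimb. The hindlimb libraries were apart from each other as well as from forelimb, and the difference was -1.45 ± 0.38 (SE, edgeR adjusted p = 0.0165). With the offset, it was -0.62 ± 0.21, the lowest value of the 41 genes. Its main tag, printed above, is the poorest in G and C among the 11 and held 84.5% of the counts of the gene.

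Plk1, a kinase of spindle assembly and mitotic exit (chromosome 7, 122159439 to 122169873, plus strand), had 17.1 and 19.8 CPM in forelimb and 53.8 and 43.1 CPM in hindlimb. The difference of 1.41 ± 0.38 passed (SE, edgeR adjusted p = 0.0192), but it was -0.09 ± 0.32 with the offset. Tags of 1 gene alone gave 2.34, after the removal of tags that hold 21.1% of its counts. Birc5, the survivin subunit of the chromosomal passenger complex, had 248 and 205 CPM in forelimb and 210 and 283 CPM in hindlimb. It stood at 0.12 ± 0.31 (SE, edgeR adjusted p = 0.825), with the limb types overlapping. Ccnb1, the mitotic cyclin of Cdk1, had 210 and 151 CPM in forelimb and 190 and 221 CPM in hindlimb, and stood at 0.19 ± 0.31 (SE, edgeR adjusted p = 0.726).

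The other 4 genes of this role were at 0.54 ± 0.33 for Ccnb2, -0.26 ± 0.32 for Ccna2, 0.36 ± 0.36 for Aurkb and -0.36 ± 0.38 for Aurka (SE). Ccna2, the cyclin of S phase and G2, depended on which tags were summed. Tags that match no GENCODE M21 transcript held 66.0% of its counts. With tags of 1 gene alone, Ccna2 was called higher in forelimb at -1.63 (edgeR adjusted p = 0.00617), and over all alternatives its adjusted p ran from 0.00608 to 0.977.

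Of the 4 spindle checkpoint and anaphase genes, Cdc20 was higher in hindlimb and 3 did not pass. Cdc20 activates the anaphase-promoting complex, the ubiquitin ligase that ends mitosis (chromosome 4, 118432901 to 118437352, minus strand). It had 24.4 and 22.2 CPM in forelimb and 85.6 and 144 CPM in hindlimb. This was the largest difference of the 41 genes, at 2.29 ± 0.37 (SE, edgeR adjusted p = 0.00118), or 0.61 ± 0.26 with the offset. Tags shared with the pseudogene Gm7856 held 89.6% of the counts, and tags of 1 gene alone gave 2.03.

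Ube2c, the ubiquitin-conjugating enzyme that works with the same complex, had 338 and 255 CPM in forelimb and 217 and 162 CPM in hindlimb. The difference was opposite in sign to that of Cdc20 and did not pass, at -0.65 ± 0.32 (SE, edgeR adjusted p = 0.169). Bub1b, a checkpoint protein that holds Cdc20 inactive, had 23.4 and 21 CPM in forelimb and 24.0 and 13.4 CPM in hindlimb. It stood at -0.25 ± 0.43 (SE, edgeR adjusted p = 0.729), and its partner kinase Bub1 at -0.53 ± 0.47 (SE).

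None of the 4 mitotic chromosome and spindle genes passed (edgeR), and Mki67 alone had an unadjusted p under 0.05. Mki67, the proliferation marker Ki-67 that coats mitotic chromosomes, had 293 and 276 CPM in forelimb and 165 and 182 CPM in hindlimb. The limb types did not overlap, but the log2 fold change of -0.72 ± 0.30 did not pass (SE, edgeR adjusted p = 0.111), and with the offset it was 0.10 ± 0.21. Top2a, the topoisomerase that untangles sister chromatids, had 114 and 103 CPM in forelimb and 124 and 152 CPM in hindlimb. It stood at 0.34 ± 0.31 (SE, edgeR adjusted p = 0.481). Cenpa, the centromeric histone H3 variant, was at -0.11 ± 0.31, and Kif11, the motor that pushes spindle poles apart, at -0.41 ± 0.35 (SE).

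Each phase held fold changes on both sides of 0. In S phase, 2 genes passed as higher in hindlimb and 4 as higher in forelimb, and 10 fold changes lay above 0 and 8 below, with a median of 0.26. In G1 and G1/S, none was higher in hindlimb and 2 were higher in forelimb, with a median of -0.48. In mitosis, 2 were higher in hindlimb and 1 in forelimb, with a median of -0.18. With the offset the medians were 0.14, -0.18 and 0.14, where all tested genes had -0.02.

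Summed CPM gave another order than the medians, because it rests on the most counted genes. The 18 S phase genes summed to 2706 and 2550 CPM in forelimb and 1932 and 1849 CPM in hindlimb, and Pcna alone made up 719 and 851 of the forelimb sums. The 16 mitosis genes summed to 2104 and 1990 CPM in forelimb and 1789 and 1751 CPM in hindlimb. Both sums were lower in both hindlimb libraries. With the offset, the S phase sums were 2185 and 2192 in forelimb and 2294 and 2449 in hindlimb, and the mitosis sums 1951 and 1770 against 2022 and 2063. Both sums were then higher in both hindlimb libraries, so the direction of these summed levels depended on the offset. Of the S phase sums with the offset, Tyms made up 293 and 154 CPM in forelimb and 300 and 528 CPM in hindlimb. Of the mitosis sums with the offset, Birc5 made up 221 and 168 CPM in forelimb and 270 and 364 CPM in hindlimb. Without Tyms the S phase sums of the limb types overlapped, as did the mitosis sums without Birc5. The 7 G1 and G1/S genes summed to 909 and 982 CPM in forelimb and 857 and 833 CPM in hindlimb. With the offset the sums were 925 and 936 against 899 and 917 CPM, lower in both hindlimb libraries as before.

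The differences of the 41 genes varied with the base composition of their tags. The G and C share of tags, weighted by count, was 42.9% to 64.8% in the 4 genes higher in hindlimb and 16.4% to 40.7% in the 7 genes higher in forelimb, where the median of the 41 genes was 43.9%. Across the 41 genes, Pearson's r between the log2 fold change and this share was 0.704, and 0.330 with the offset. The genes share the same 4 libraries in this correlation, which is a description.

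Single tags varied with base composition as well. Of 448 tags with a count in the 41 genes, 179 had enough counts to be tested. Among the 54 tags with 0 to 6 G or C, 42 had a higher level in forelimb and the median log2 fold change was -0.82, where all tested tags of that class had -0.93. The 89 tags with 7 to 9 G or C had a median of -0.03 (all tags, -0.10). Among the 36 tags with 10 to 17 G or C, 25 had a higher level in hindlimb and the median was 0.97 (all tags, 1.45). Across tags, r between log2 fold change and the number of G and C was 0.451 for the 179 tags and 0.572 for all 37805 tested tags, which share libraries and genes.

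**Figure D3:**
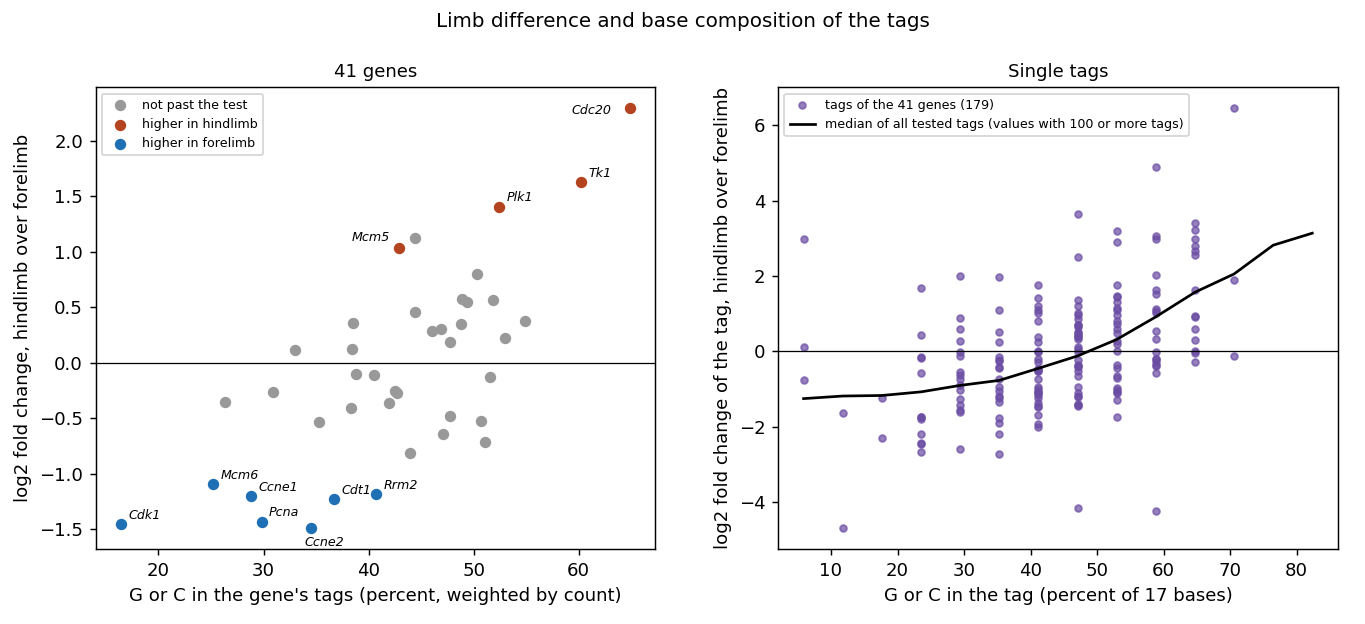
Log2 fold change, hindlimb over forelimb, against the percent of G and C in tags, for the 41 genes (left) and for their 179 tested tags (right). The genes higher in forelimb lie at 16.4% to 40.7% and those higher in hindlimb at 42.9% to 64.8%, and the black line, the median of all tested tags at each GC value with 100 or more tags, climbs from left to right.

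Tags of 1 gene are several readings of the same gene, and in these libraries they often went apart. Of the 39 genes with 2 or more tested tags, 32 had tags on both sides of 0. In 20 of the 41 genes, a tag above 1 and another below -1 on the log2 scale were found. Tags with few counts enter here, such as a Bub1b tag with 16 counts at -4.15 ± 1.78 (SE). Tags that match no GENCODE M21 transcript, or that match another gene, enter as well. The only Mcm6 tag above 1, at 2.01, matches no such transcript, and a Ccnd1 tag at -1.44 matches LTO1 alone. Such tags may not be readings of the gene they were assigned to. No share over all genes was taken for either number of genes. A test of unequal change between tags (edgeR diffSpliceDGE, adjusted over genes) called 6 of the 39 genes, and 10.4% of all 8694 genes tested that way. These were Tyms, Birc5, Ccne1, Top2a, Ccne2 and Mcm4, with adjusted p from 0.000689 to 0.0278. The count was 3 with no low-count filter and 1 with the replicate number as a block. It also rests on single libraries, since it was 0 when either forelimb library was left out, 2 without hindlimb replicate 2, and 12 with hindlimb replicate 1 left out.

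The pairs of tags from Tyms, Birc5 and Ccne2 show how far readings of the same gene went apart, with G and C in capitals as before.
Tyms, most abundant tag, chr5:30063243-30063263, minus strand, coding sequence: attGCaCatatCaCaGG
Tyms, next tag, chr5:30063362-30063382, minus strand, coding sequence: CCCtCtGtCaGttCtat
Birc5, most abundant tag, chr11:117855636-117855656, plus strand, 3′ UTR: GGtaaGtGtGGttatat
Birc5, next tag, chr11:117855346-117855366, plus strand, 3′ UTR: CCaCatCtaaGCCaCGC
Ccne2, next tag, chr4:11204048-11204068, plus strand, 3′ UTR: aaaaaaCtttaaCatat
The next tag of Tyms, cut at the site before the last, had 6.71 and 3.06 CPM in forelimb and 51.5 and 80.1 CPM in hindlimb. The most abundant Tyms tag, at the last site, had 414 and 187 CPM in forelimb and 151 and 211 CPM in hindlimb. The log2 fold changes of the pair were 3.66 and -0.73, although the tags differ little in composition, with 8 and 7 of 17 bases G or C. Both tags also match the pseudogene Tyms-ps, so neither is a reading of Tyms alone. In Birc5 the next tag, with 10 of 17 bases G or C, had 5.68 and 4.28 CPM in forelimb and 36.8 and 49.6 CPM in hindlimb, while the main tag, with 6, stood at -0.14 on the log2 scale. In Ccne2 the next tag, with 2 G or C, had 18.3 and 25.7 CPM in forelimb and 1.34 and 0.250 CPM in hindlimb, the last of these from a single count. Its log2 fold change was -4.69, beside -1.07 for the main tag of the gene.

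**Figure D4:**
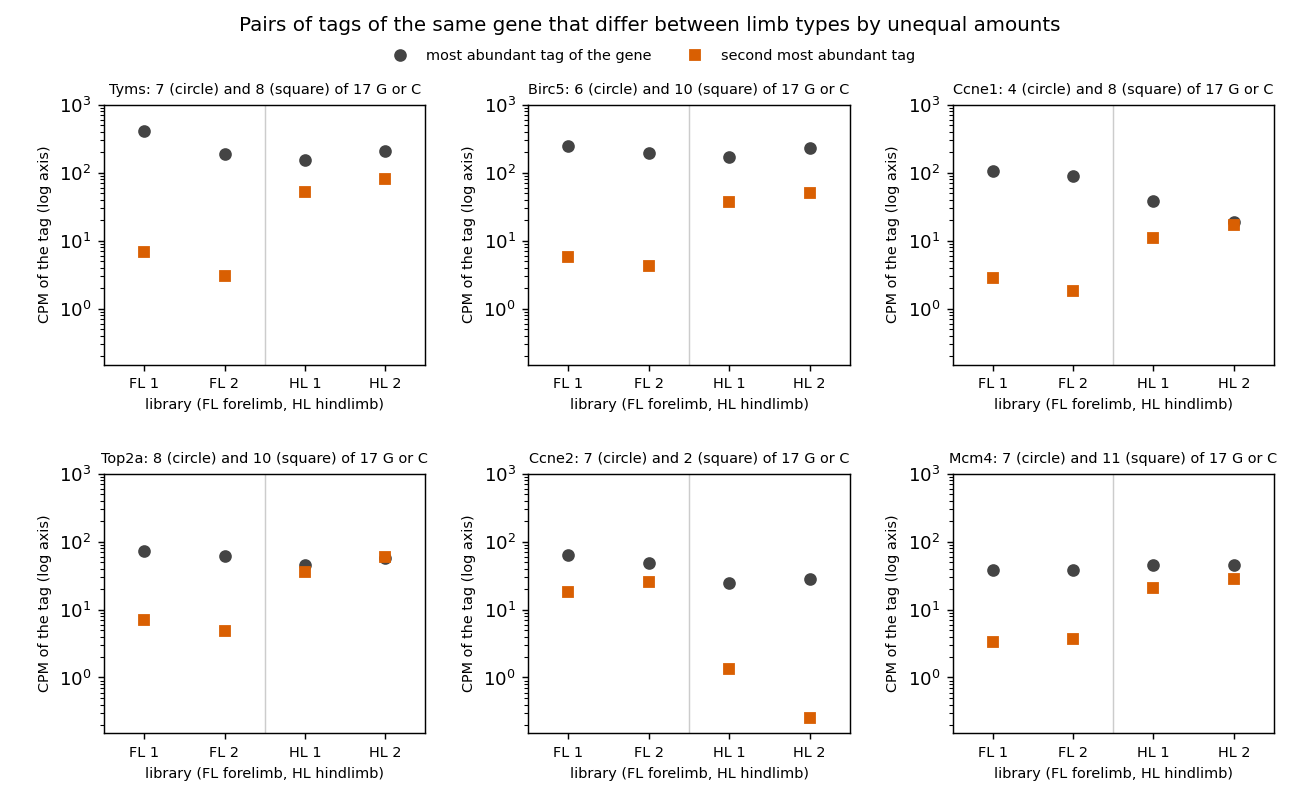
CPM (log axis) of the most abundant and the second most abundant tag of the 6 genes whose tags changed unequally, 1 point per library. In Tyms, Birc5, Ccne1, Top2a and Mcm4 the less abundant tag is higher in both hindlimb libraries than in both forelimb libraries, and in Ccne2 it is lower. Both Tyms tags also match the pseudogene Tyms-ps.

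Some readings are shared with other genes. Tags that match several genes held over 10% of the counts in 8 of the 41 genes (Tyms, Cdc20, Tk1, Kif11, Cdk4, Pcna, Plk1 and Ccnb2), and 27 genes had no such counts. These numbers leave out tags that match another gene alone. Such tags were found in Ccnd1, where a tag with 160 of the 1725 counts matches LTO1 alone and stood at -1.44. Kif11 had 44.6% and Cdk4 44.4% of counts on shared tags. With tags of 1 gene alone, all 11 calls remained and Ccna2 joined them (18.0% of all genes tested that way were called). With the most abundant tag alone (23.5% of all), Ccne2 (-1.14) and Mcm5 (1.14) lost their calls and Mki67 (-1.17) was called higher in forelimb. With the last NlaIII site alone (23.3% of all), Cdt1 (-0.83), Mcm5 (1.04) and Pcna (-0.29) lost theirs, and Ccna2 (-2.03), Cdk2 (-1.31) and Mki67 (-1.22) were called. Mcm5 was also lost with the replicate number as a block, at 1.04 (15.7% of all).

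Leaving out single libraries changed the calls, for these genes and for the whole table. Of all tested genes, 7.19% were called when forelimb replicate 1 was left out and 6.48% when forelimb replicate 2 was. The share was 27.0% with hindlimb replicate 1 left out and 7.16% with hindlimb replicate 2 left out. Without forelimb replicate 1, Cdc20, Tk1, Cdk1 and Pcna were still called, at 2.37, 2.08, -1.62 and -1.54, and the other 7 lost their calls at -1.44 (Ccne2) to 1.30 (Plk1). Without forelimb replicate 2, Cdc20 at 2.22 and Ccne2 at -1.54 were called, and the other 9 lost their calls at -1.33 (Ccne1) to 1.5 (Plk1). Cdc20 was thus called in each of the 4 fits with a library left out, with 1.88 without hindlimb replicate 2 and 2.61 without hindlimb replicate 1. Without hindlimb replicate 2, the library with the most G and C, Cdk1 (-0.92), Mcm6 (-0.75), Cdt1 (-0.98) and Ccne1 (-1.01) lost their calls and 7 genes kept theirs. Without hindlimb replicate 1, all 11 calls remained and Cdk2 joined them at -1.05.

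Other genes of the pathway were read from 4 lists, and their counts are to be read against the 16.7% called in the whole table. Of 13 E2F, pocket protein and mitotic transcription regulators, 1 was higher in hindlimb and 2 were higher in forelimb, with a median log2 fold change of 0.22. E2f7, a repressor of E2F targets, stood at 2.16 ± 0.44 (SE), or 0.36 with the offset. Rb1, the retinoblastoma protein that restrains E2F, stood at -1.45 ± 0.39 (SE; offset, -0.21), and Lin54, the DNA-binding subunit of MuvB, at -1.52 ± 0.48 (SE; offset, -0.42). Of 7 CDK inhibitors, 4 were tested, and Cdkn1a, the inhibitor p21, was higher in hindlimb at 1.57 ± 0.51 (SE), but stood at -0.18 with the offset. The table had no count for Cdkn2d, and Cdkn2a and Cdkn2b had too few to be tested.

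Of 31 other replication genes, hindlimb was higher for 2 and forelimb for 3, while 26 missed the threshold, with a median of -0.15. Rpa2, of the single-strand binding protein RPA, stood at 1.70 ± 0.40 (SE; offset, 0.42), and Rfc5, of the clamp loader, at 1.39 ± 0.42 (SE; offset, -0.34). Cdc7, the kinase that fires origins, stood at -1.94 ± 0.41 (SE; offset, -0.25), and Pola2, a subunit of polymerase alpha, at -1.09 ± 0.33 (SE; offset, -0.20). The fifth, Pole2 of polymerase epsilon, stood at -1.57 (offset, -0.95) and is named after its value was seen. Of 33 other mitosis genes, Cdca8 (1.31 ± 0.36) and Cenpf (1.08 ± 0.32) were higher in hindlimb, and Nusap1 (-1.07 ± 0.32) and Cks2 (-1.0 ± 0.30) were higher in forelimb (SE), with a median of 0.02. With the offset these 4 stood at -0.28, 0.10, 0.05 and 0.04, and the signs of Cdca8 and Nusap1 turned. With the offset, edgeR called none in any of the 4 lists, and the unadjusted p was under 0.05 for 0, 0, 2 and 6 genes in the order given. Over all 13718 tested features, that number was 1440.

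Markers of other limb cell types also differed between limb types. Of 8 skeletal muscle markers, Acta1, Myh3, Myh8 and Tnnc2 were higher in forelimb and none was higher in hindlimb. Their summed level was 2905 and 2439 CPM in forelimb and 978 and 1151 CPM in hindlimb. Acta1 alone made up 1969 and 1354 CPM of the forelimb sums and 520 and 545 CPM of the hindlimb sums. With the offset the muscle sums remained apart, at 2541 and 2380 against 1173 and 1303 CPM. Acta1 at -1.18 (edgeR adjusted p = 0.0242) and Myh8 at -1.34 (edgeR adjusted p = 0.0437) were still called with the offset. Of 6 cartilage markers, Col2a1 and Col9a2 were higher in hindlimb and Matn1 was higher in forelimb. Their sum was 2462 and 2224 CPM in forelimb and 3661 and 5231 CPM in hindlimb, and with the offset 3323 and 3106 against 3139 and 3154 CPM.

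Among the 4 erythroid markers tested, Hba-a2 was higher in hindlimb and Hbb-bs was higher in forelimb. Of the others, Hba-a1 and Hbb-bt had no count in any library. Of 6 endothelial markers, Pecam1 and Cldn5 were higher in hindlimb and Cdh5 was higher in forelimb. Of 6 epidermal markers, Krt14 and Krt1 were higher in hindlimb and Krt10 and Trp63 were higher in forelimb. Of 6 macrophage markers, 4 were tested and edgeR called none, with an unadjusted p under 0.05 for 1, and Cd68 and Adgre1 were too low to test. With the offset, edgeR called none of the erythroid, endothelial or epidermal markers, and the unadjusted p was under 0.05 for 2, 1 and 2 of them. Over all 13718 tested features, the unadjusted p was under 0.05 for 1440 with the offset and 4449 without it. The 3 largest of the named differences, in Hba-a2, Cldn5 and Pecam1, went from 2.72, 2.32 and 2.08 to 0.55, -0.10 and 0.20. The named markers were chosen after their values were seen. Their part in the differences of the replication and mitosis genes was not tested.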

How the data were processed

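Tags were counted in 4 DGE-SAGE libraries. The authors deposited a table of raw tag counts, in whole numbers, and gave some tags an Ensembl gene, a UniGene cluster or both. Bowtie and mm9 are named, per the submitters' processing notes, with no version or setting given in the sources used here. Of 733961 tags of 17 bases, 166502 had a gene or cluster, and their counts were summed per gene. Tags with neither (14.8% to 18.7% of a library) entered neither library sizes nor tests. Tags were matched to GENCODE M21 transcripts (GRCm38) beside CATG. Among tags that match 1 gene and were given an Ensembl gene by the authors, 98.0% of counts lay in tags given the same gene. Tags that match 1 gene but were given no Ensembl gene are outside this share. Positions are from GRCm38, not mm9.

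Hindlimb was compared with forelimb in R 4.3.3 with edgeR 4.0.16 (quasi-likelihood test, TMM, filterByExpr, Benjamini-Hochberg at 0.05 over 13718 features, no block, 2 residual degrees of freedom). SE is the log2 fold change over the square root of F. Tags are PCR products without molecular identifiers, and p-values measure the spread between these samples. Tag usage was tested with diffSpliceDGE. The tag-sequence offset models base by position, the leading dinucleotide, GC and purine number per library, fitted on 42831 tags (20 or more counts) of 9913 genes, on differences within genes only. DESeq2 1.42.0, library totals alone, no filter, left-out libraries, a replicate block and other choices of tags were alternatives. Scripts were tested on simulated data.

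The members and gene lists were chosen with earlier results of these data known. Full statistics are given for called members and, in each role, for the 2 uncalled members with the most counts; other members by value or range. Up to 4 called genes per other list, with the smallest p, are named.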

Additional observations from a re-analysis of the deposited data

Results flagged for a closer look

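Counts that entered no gene were found for most of the set. In the deposited table, 170 tags that match a single one of the 41 genes in GENCODE M21 carry no Ensembl gene, and they hold 12518 counts, beside 69566 counts assigned to the 41 genes. They match 37 of the genes. Ccnd2, a D-type cyclin, holds 9806 of these counts in 9 tags, which is 248% of the 3951 counts assigned to it. Ccnd1 follows with 922 counts, and the 36 genes other than Ccnd2 hold 2712 in all.

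The main Ccnd2 tag without a gene lies beside the last NlaIII site of the transcript, at chr6:127125576-127125596 on the minus strand of GRCm38, in the 3′ UTR. It is shown because it holds the most counts among the Ccnd2 tags without a gene, with G and C in capitals.
Ccnd2, tag without a gene: taCCtCaGatCtatCaG
It was counted 2774 and 941 times in forelimb replicates 1 and 2 and 2397 and 2157 times in hindlimb replicates 1 and 2. Ccnd2 stood at 0.58 on the log2 scale as assigned by the authors and at -0.18 with tags assigned by GENCODE M21, and passed the test in neither. It also stood at -0.26 with the assigned tags that match 1 gene, without this tag. The most counted tags assigned to Ccnd2, with 1917 and 687 counts, stood at 1.15 and 1.02. They match no GENCODE M21 transcript, and both alternatives leave them out. The cause of the change of sign was not tested.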

How the results depend on the processing

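The 4 hindlimb calls and 7 forelimb calls were the same 11 genes under DESeq2, under library totals alone and without a filter. With the tag-sequence offset, and with the replicate block and the offset together, it was 0 and 0. Over the fits with a library left out, 1 to 4 were higher in hindlimb and 1 to 8 in forelimb, and tag usage called 0 to 12 genes. Tag usage called 3 with no filter and 1 with the replicate block. In the whole table, calls numbered 2285 as reported, 30 with the offset (with the block too, 10 higher in hindlimb and 13 in forelimb), 1034, 950 and 1034 without forelimb replicate 1, forelimb replicate 2 and hindlimb replicate 2, and 3900 without hindlimb replicate 1.

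Median log2 fold changes ran over the left-out libraries from 0.09 to 0.31 in S phase, -0.55 to -0.42 in G1 and G1/S and -0.33 to -0.01 in mitosis. The G1 and G1/S median was -0.18 with the offset, -0.18 with block and offset, -0.69 with tags of 1 gene, -0.80 with the most abundant tag and -0.85 with the last NlaIII site. The mitosis median was 0.14 with the offset, 0.14 with block and offset and -0.41 with the last site.

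With the replicate number as a block, 10 genes were called, all but Mcm5 of the 11. The labels do not say that a number marks shared embryos, and deviations of same-numbered libraries correlated at -0.106. Crossing the pairs, chosen after seeing the data, called 12 of the 41 genes, and 1684 genes in hindlimb and 1486 in forelimb over the whole table.

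Signs turned with the offset for Aurka (0.38; 0.39 with the block too), Ccna2 (0.30; 0.30), Ccnd3 (-0.18; -0.18), Lig1 (-0.19; -0.18), Mcm3 (0.52; 0.54), Mcm4 (-0.37; -0.37), Mcm5 (-0.13; -0.13), Mcm6 (0.23; 0.23), Mki67 (0.10; 0.095), Plk1 (-0.092; -0.098), Tyms (0.88; 0.90) and Ube2c (0.18; 0.16). With the last NlaIII site alone they turned for Birc5 (-0.26), Bub1b (0.45), Ccnb1 (-0.070), Ccnd1 (0.66), Ccnd2 (-0.68), Ccnd3 (-0.051), Mcm3 (0.47), Pola1 (0.20) and Top2a (-0.41). With the most abundant tag they turned for Birc5 (-0.21), Bub1b (0.32), Ccna2 (0.39), Ccnb1 (-0.0020), Lig1 (-0.048), Pola1 (0.26) and Top2a (-0.45). With tags of 1 gene they turned for Ccnd1 (0.053), Ccnd2 (-0.26) and Tyms (0.71), and with tags assigned by GENCODE M21, an alternative chosen after seeing the data, for Tyms (0.27), Ccnd1 (0.30) and Ccnd2 (-0.18). The cause was not tested. Over the left-out libraries signs turned for Mcm2 (-0.054 to 0.59), Mcm3 (-0.25 to 0.068), Tyms (-0.70 to 0.33), Ccnd1 (-0.48 to 0.31), Ccnd3 (-0.073 to 0.29), Ccnb1 (-0.038 to 0.45), Birc5 (-0.097 to 0.31), Bub1b (-0.75 to 0.12) and Kif11 (-0.73 to 0.038).

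With a library left out, its limb type has 1 sample, assumed to vary like the other limb type. Forelimb replicate 2 is the shallowest library, and genes such as Pole, with 15 counts there, are read least precisely.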
